A study of Homo sapiens with 18 samples.

Results

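The nuclear-encoded subunits of oxidative phosphorylation were taken from an RNA-seq table of ZR751 cells as the protein-coding rows whose RefSeq identifiers carry a symbol starting with NDUFA, NDUFB, NDUFC, NDUFS, NDUFV, UQCR, COX4, COX5, COX6, COX7, COX8 or ATP5, or the symbols SDHA, SDHB, SDHC and SDHD, with the NDUFAF assembly factors left out. This rule gave 88 genes of the 23500 rows. They comprised 36 genes of complex I, 4 of complex II, 9 of complex III, 19 of complex IV and 16 of complex V. A further 4 rows were given apart from the complexes, because ATP5IF1 encodes an inhibitor of the ATP synthase and the rows of ATP5F1E, ATP5MF and NDUFC2 also hold a neighbouring protein-coding gene. NDUFA4 and NDUFA4L2 were counted under complex IV. Of the 88 genes, 80 passed the filter on low values, a mean of log2(FPKM + 0.5) above 1 over the 4 libraries. FPKM are fragment numbers scaled to the length of the transcript and the depth of the library, so they can be set side by side between genes.

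The ZR751 line (ZR75-1) was derived from an ER+ breast cancer and is widely used in culture. ZR751shMLL3 cells were stably transduced with a lentiviral short hairpin RNA against MLL3, an H3K4 methyltransferase whose gene symbol is KMT2C, and ZR751shLucif cells with a hairpin against luciferase. Both lines also carry the GFP marker by which they were sorted, each rests on 1 hairpin, and both were used at early passages. RNA-seq was performed on 2 libraries of each line, and peak lists for SP1, H3K4me1 and ERα ChIP-seq came from 2 libraries of each line as well. By the study's sample names, both ZR751shMLL3 RNA libraries came from later passages than both ZR751shLucif libraries, so passage and knockdown cannot be told apart.

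Oxidative phosphorylation takes place at the inner mitochondrial membrane. Complex I oxidizes NADH, complex II oxidizes succinate, complex III passes the electrons on to cytochrome c, complex IV hands them to oxygen, and complex V uses the resulting proton gradient to make ATP. Complex II is encoded entirely in the nucleus, whereas the other complexes join nuclear subunits with a few made from mitochondrial DNA. The nuclear genes lie on many chromosomes, and factors such as NRF1, the ETS protein GABP, YY1, SP1 and the estrogen-related receptors are known to bind their promoters.

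KMT2C itself was listed at 2.34 and 6.77 FPKM in ZR751shLucif replicates 1 and 2 and at 1.07 and 2.69 FPKM in ZR751shMLL3 replicates 1 and 2. The groups overlapped, since the library labelled ZR751shLucif replicate 1 lay below ZR751shMLL3 replicate 2, and the log2 fold change of -1.02 did not pass the test (limma adjusted p = 0.629). The paper reports the knockdown by qPCR in biological triplicate, a measurement apart from these libraries. All 8 luminal epithelial markers of the list used here were above 1 FPKM in each library, and 2 of 11 basal, stromal and blood cell markers were. The summed FPKM of the luminal markers ran from 4944 in ZR751shLucif replicate 2 to 12536 in ZR751shLucif replicate 1. FPKM of all protein-coding rows summed to 691860 in the library labelled ZR751shLucif replicate 1 and to 472672 to 512296 in the other 3. The number of fragments behind a gene is unknown, because the table holds no counts.

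The ubiquitous subunit genes were among the abundant transcripts of these cells. The median over the mean levels of the 80 tested genes was 176 FPKM, beside 13.3 FPKM over all 11134 rows tested, and 47 of the 80 were above 100 FPKM in each of the 4 libraries. The mean level ran over 80.7-fold, from 9.67 FPKM (UQCRHL) to 781 FPKM (COX7C). By complex, the median level was lowest in complex II, at 63.3 FPKM. It was 121 FPKM in complex I, 171 in complex III, 303 in complex V and 404 in complex IV. In what follows, values of a gene are given in the order ZR751shLucif replicates 1 and 2, then ZR751shMLL3 replicates 1 and 2.

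**Figure D1:**
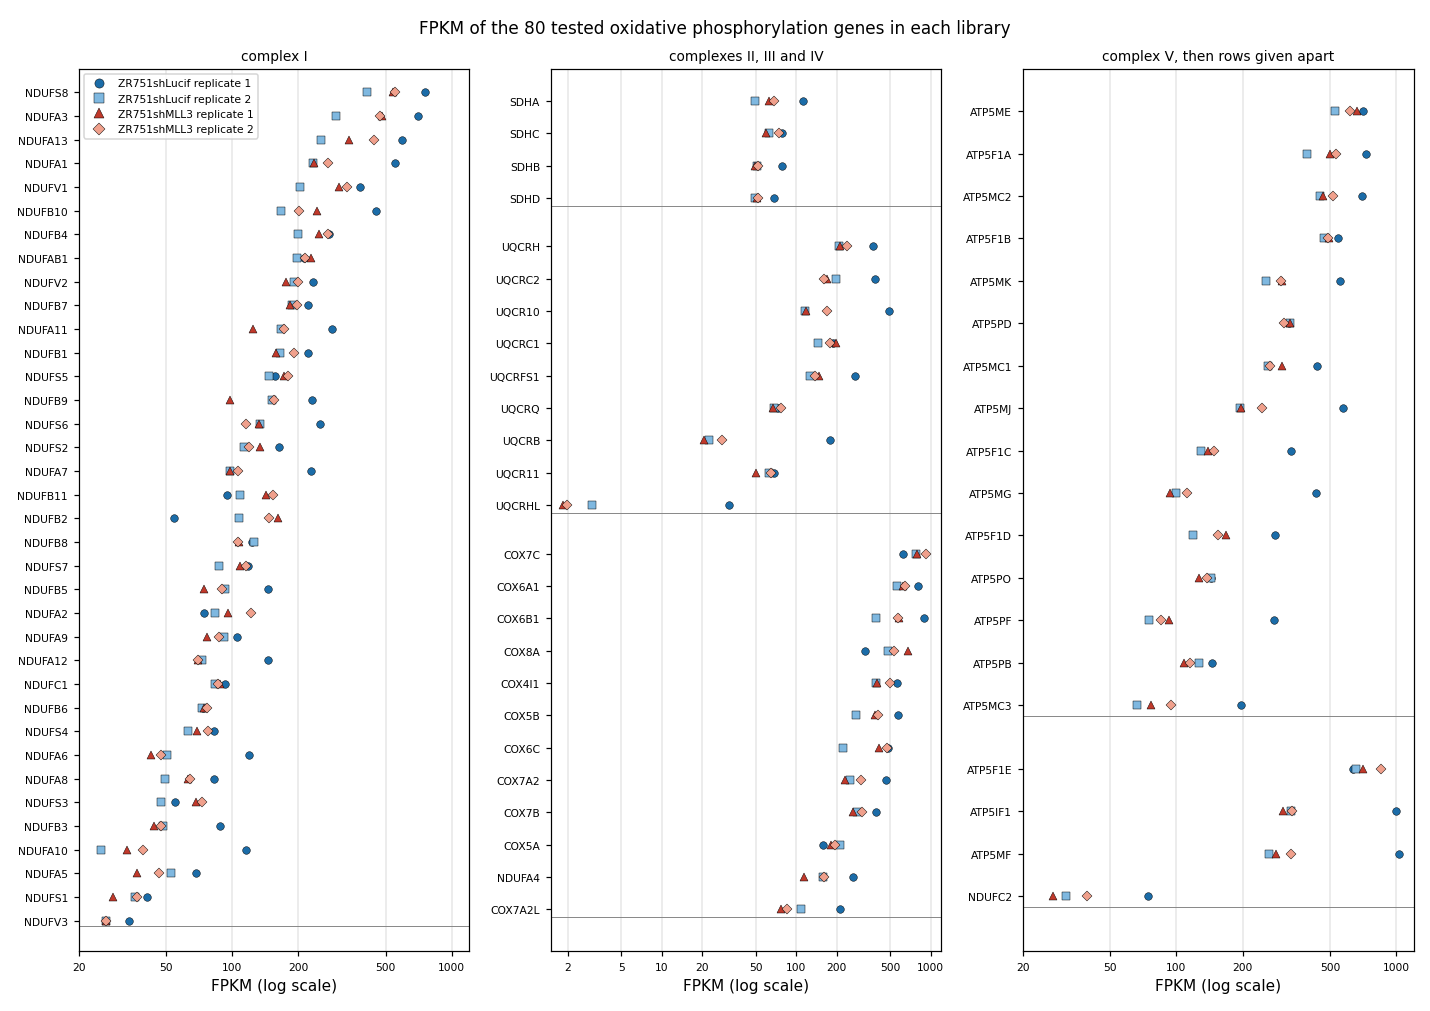
FPKM on a log scale (x axis) of the 80 tested genes (y axis, ordered by mean level within each complex), with 1 point for each of the 4 libraries. The dark blue circles of the library labelled ZR751shLucif replicate 1 lie to the right of the other 3 libraries for 64 of the 80 genes.

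In complex I, the genes of highest mean level were NDUFS8 and NDUFA3. NDUFS8, an iron-sulfur subunit of the arm that passes electrons to ubiquinone, was at 756, 413, 538 and 552 FPKM. NDUFA3, an accessory membrane subunit, was at 701, 298, 482 and 474 FPKM. For both genes the ZR751shMLL3 libraries lay between the ZR751shLucif libraries, so the groups overlapped. The lowest of complex I was NDUFV3, at 33.9, 26.7, 26.8 and 26.6 FPKM, where 3 of the libraries were nearly equal. All 4 genes of complex II were close to each other. SDHA, the flavoprotein that oxidizes succinate, was at 112, 49.1, 62.7 and 68.0 FPKM, and SDHC, a membrane anchor, at 77.8, 62.6, 59.6 and 74.2 FPKM. In complex III, UQCRH, the hinge protein next to cytochrome c1, was at 371, 208, 211 and 240.3 FPKM, and the core protein gene UQCRC2 at 383, 197, 168 and 161 FPKM. For UQCRC2 both ZR751shMLL3 libraries were below both ZR751shLucif libraries. In complex IV, COX7C and COX6A1 led. COX7C was at 619, 783, 793 and 928 FPKM, with both ZR751shMLL3 libraries above both ZR751shLucif libraries. COX6A1 was at 809, 562, 624 and 644 FPKM, with overlap. In complex V, the highest were ATP5ME, a membrane-domain subunit, at 706, 526, 660.4 and 618 FPKM, and ATP5F1A, the alpha subunit of the catalytic head, at 733, 391, 498 and 533 FPKM. In both genes the ZR751shLucif libraries enclosed the ZR751shMLL3 libraries.

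Complex IV has subunits with a ubiquitous form and a form restricted to particular tissues, and only the ubiquitous forms reached the filter. COX4I1 was at 559, 391, 396 and 498 FPKM, whereas COX4I2, the form known from lung, was listed at 0 in all 4 libraries. COX6A2, the heart and muscle form of COX6A1, and COX7B2, the partner of COX7B, were listed at 0 in all 4 libraries too. COX7A1, the heart and muscle form of COX7A2, was listed at 0 in 3 libraries and at 0.167 FPKM in ZR751shMLL3 replicate 2, beside 467, 253, 229 and 303 FPKM for COX7A2. COX8C, the testis form of COX8A, was listed at 0 in 3 libraries, and COX6B2, the testis form of COX6B1, was between 0.224 and 0.499 FPKM. COX6B1 was at 889, 393, 576 and 573 FPKM. NDUFA4L2, known as a hypoxia-induced relative of NDUFA4, was at 0.692, 1.09, 1.10 and 0.588 FPKM beside 265, 158, 114 and 162 FPKM for NDUFA4. The remaining gene that failed the filter was ATP5MGL, a relative of ATP5MG, listed at 0 in 3 libraries. COX7B was at 391, 286, 263 and 311 FPKM.

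The ring of c subunits in complex V is encoded by 3 genes that give the same mature protein. ATP5MC2 was highest, at 699.7, 449, 467 and 516 FPKM. ATP5MC1 followed, at 435, 260.2, 302 and 266 FPKM. ATP5MC3 was at 196, 66.3, 76.3 and 94.5 FPKM. This order held within each of the 4 libraries, and the highest ATP5MC3 value lay below the lowest ATP5MC1 value. In each of the 3 genes the library labelled ZR751shLucif replicate 1 was the highest. UQCRHL, an intronless near-copy of UQCRH, was at 31.8, 3.06, 1.84 and 1.97 FPKM. Reads of UQCRHL and UQCRH can be exchanged by the alignment, so the split between the 2 genes is uncertain.

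The comparison of ZR751shMLL3 with ZR751shLucif asked which genes changed upon knockdown of MLL3. No subunit gene passed limma at an adjusted p of 0.05 in either direction, where 0% of all rows tested were called higher and 0.00898% (1 row) lower. The smallest adjusted p among the 80 genes was 0.605. At an unadjusted p under 0.05, 1 gene was higher (3.67% of all rows) and 0 were lower (4.31% of all rows). The median log2 fold change of the 80 genes was -0.18, beside -0.10 over all rows tested, and 20 of 80 were above 0, beside 40.9% of all rows. After 1 surrogate variable was taken out of the residuals, 11 genes were called, 1 higher and 10 lower, beside 6.01% and 9.1% of all rows. That variable was estimated from the same libraries, and the test did not count it as a lost degree of freedom. Its p-values are therefore too small, and these calls are not evidence of change.

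The spread between the ZR751shLucif libraries was larger than the difference between the lines. The library labelled ZR751shLucif replicate 1 was the highest of the 4 for 64 of the 80 subunit genes (80.0%), beside 47.9% of all rows tested, and the lowest for 7 (8.75%), beside 20.3%. It exceeded the mean of the other 3 libraries by more than 1 on the log2 scale for 19 subunit genes (23.8%), beside 8.24% of all rows, and no other library did so for any subunit gene. For 15 genes it was more than 2 times the highest of the other libraries. Over the 80 genes, log2 levels correlated at 0.830 to 0.844 between that library and the others and at 0.978 to 0.991 among the other 3 (Pearson, across genes that are not independent replicates). The median coefficient of variation of a gene was 26.1% over 4 libraries and 11.4% over the other 3. As a share of the FPKM of all protein-coding rows, the 88 genes made up 3.60 and 3.14% in ZR751shLucif and 3.25 and 3.57% in ZR751shMLL3, so the ranges of the lines overlapped on that scale.

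**Figure D2:**
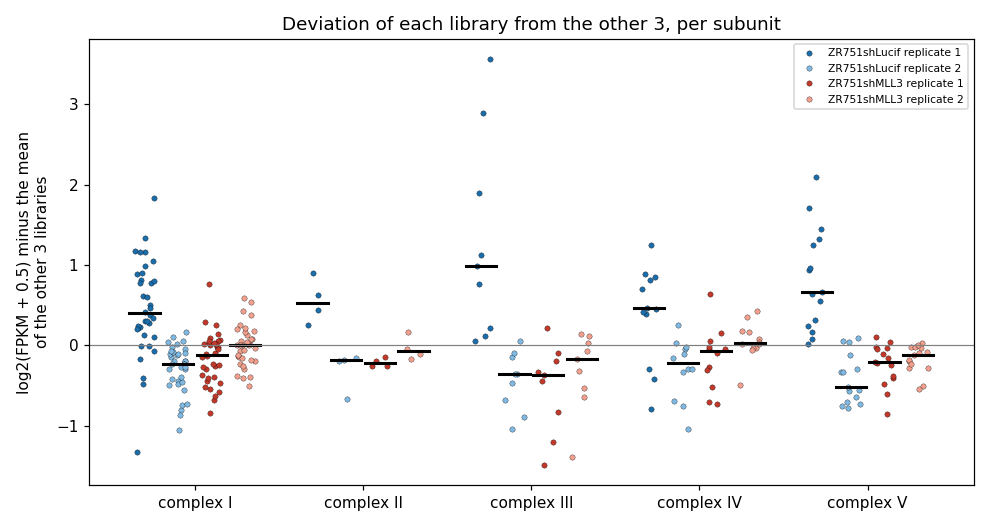
Deviation of each library from the mean of the other 3 in log2(FPKM + 0.5) (y axis) for the tested subunit genes of each complex (x axis). Each point is a gene and each black bar a median, and the median of the library labelled ZR751shLucif replicate 1 lies between 0.40 (complex I) and 0.98 (complex III).

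In FPKM, the excess in that library was unequal among the complexes and among the genes of 1 complex. Its median deviation was 0.40 in complex I, 0.46 in complex IV, 0.53 in complex II, 0.66 in complex V and 0.98 in complex III. Over all rows tested it was 0.20. As a share of the FPKM of all protein-coding rows, that library was highest only in complexes III (0.297%, others 0.192 to 0.212%) and V (0.922%, others 0.769 to 0.827%). In complex IV its share was the lowest (0.831%, others 0.873 to 1.03%). In complexes I and II its shares (1.10 and 0.0487%) lay below those of ZR751shMLL3 replicate 2 (1.15 and 0.0493%). In complex III, UQCRB was at 177, 22.5, 20.7 and 27.9 FPKM and UQCR10 at 493, 116, 119 and 168 FPKM, while the Rieske protein gene UQCRFS1 was at 272, 127, 147 and 138 FPKM. Other genes of complex III were close between the libraries, with UQCRQ at 73.3, 68.0, 67.8 and 77.1 FPKM and UQCRC1 at 187, 146, 197 and 178 FPKM. In complex V, ATP5MG was at 433, 99.7, 93.4 and 112 FPKM and the coupling factor gene ATP5PF at 277, 75.3, 92.8 and 85.3 FPKM. The catalytic beta subunit gene ATP5F1B was at 541, 467, 493 and 492 FPKM and the stalk gene ATP5PD at 326, 329, 329.8 and 307 FPKM, without such an excess. Of the rows given apart, ATP5IF1 was at 997, 332, 307 and 338 FPKM and the combined row of ATP5MF at 1031, 263, 283 and 333 FPKM. In complex I, NDUFA10 was at 116, 25.4, 33.2 and 39.3 FPKM. In the opposite direction, 1 subunit gene of that library lay more than 1 below the mean of the others, NDUFB2, at 54.2, 107, 161 and 148 FPKM.

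The deviation of that library was set against 3 properties of the subunit genes. Across 79 genes, Spearman's rho with the length of the annotated canonical transcript was 0.020, and it was -0.19 with the GC content of that transcript. Across 80 genes, rho with the number of named pseudogenes in RefSeq, which ran from 0 to 18, was 0.008. Grouped by length, the median deviation was 0.81 in the 26 shortest genes, 0.55 in the middle 26 and 0.45 in the 27 longest, and over all rows rho with length was -0.25. These values describe genes of 1 library and have no test. For ZR751shMLL3 replicate 1, rho of the deviation with GC content was 0.410 over the subunit genes and 0.580 over all rows. Part of the genes, such as COX6C with 18 pseudogenes and NDUFA5 and NDUFB4 with 12 each, could share reads with these copies, and their levels are uncertain to that extent.

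The direction of the median depended on that library. Without it, the median log2 fold change of the 80 genes was 0.12, beside 0.02 over all rows, and 57 of 80 were above 0, beside 51.5% of all rows. No subunit gene was then called. Without ZR751shLucif replicate 2, the median was -0.49, 12 of 80 were above 0, beside 37% of all rows, and 19 genes passed the adjusted p, 1 higher and 18 lower, beside 3.17% and 8.23% of all rows. Each of these fits left 1 ZR751shLucif library, so the spread behind its p-values came from the ZR751shMLL3 pair alone. Without ZR751shLucif replicate 2, the remaining ZR751shLucif library was the one that stood apart. The calls of that fit cannot separate the lines from that library and are not evidence of change. The medians by complex moved together. With 4 libraries they were -0.12, -0.18, -0.38, -0.06 and -0.25 in complexes I to V, and without the library labelled ZR751shLucif replicate 1 they were 0.10, 0.07, 0.09, 0.15 and 0.16. The median of complex IV was also above 0 with median centring (0.02) and quantile normalization (0.14) of the 4 libraries. After the trends on GC content and transcript length were removed from each library, the median over all subunit genes was -0.01.

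**Figure D3:**
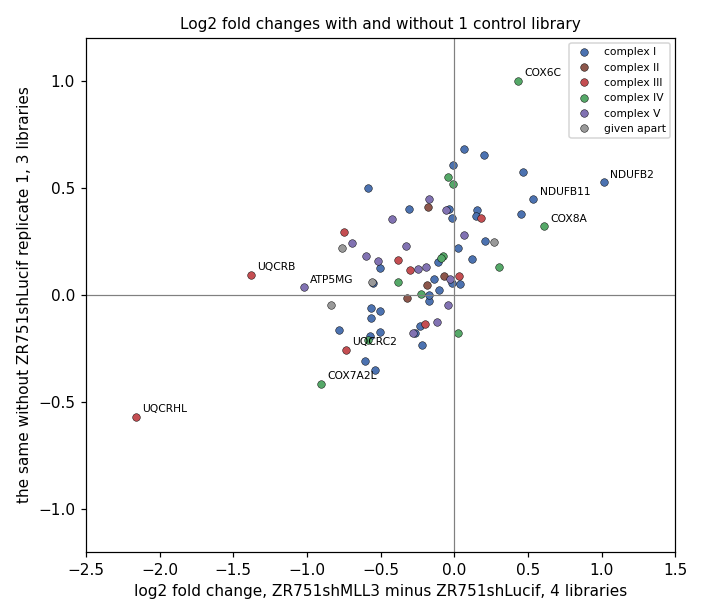
Log2 fold change of each tested gene, ZR751shMLL3 minus ZR751shLucif, from 4 libraries (x axis) against the value without the library labelled ZR751shLucif replicate 1 (y axis), coloured by complex. With 4 libraries 20 of 80 genes lie right of 0, and without that library 57 of 80 lie above 0.

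The genes with the largest fold changes or smallest p-values were few. NDUFB2, an accessory membrane subunit of complex I, had the largest positive log2 fold change, 1.01 ± 0.38 (SE), with an unadjusted p of 0.035 (limma adjusted p = 0.605). Its ZR751shMLL3 libraries were above both ZR751shLucif libraries, and the log2 fold change was 0.53 without the library labelled ZR751shLucif replicate 1. COX8A, an inner membrane subunit of complex IV, had 0.61 ± 0.32 (limma adjusted p = 0.629) and levels of 324, 484, 682 and 536 FPKM. NDUFB11, a membrane subunit of complex I, had 0.54 ± 0.27 (limma adjusted p = 0.629) and levels of 95.2, 108, 142 and 153 FPKM. The largest negative value was that of UQCRHL, -2.16 ± 0.93 (limma adjusted p = 0.620), which was -0.57 without the library labelled ZR751shLucif replicate 1. COX7A2L, a factor for the joining of complexes III and IV, had -0.90 ± 0.38 (limma adjusted p = 0.614), with 212.7, 108, 76.5 and 85.2 FPKM. UQCRC2 had -0.74 ± 0.37 (limma adjusted p = 0.629). Both genes kept a negative value without that library, of -0.41 and -0.26. COX6C, at 485, 221, 412 and 474 FPKM, had the largest positive value without it, 1.00, against a log2 fold change of 0.43 with 4 libraries.

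Some genes were separated between the lines without passing the test. Both ZR751shMLL3 libraries were above both ZR751shLucif libraries for 10 of 80 subunit genes (12.5%), beside 17.6% of all rows, and below them for 13 (16.2%), beside 25.3% of all rows. Both shares of the subunit genes were below those of all rows. With median centring the counts were 14 higher and 16 lower, beside 22.1% and 22.6% of all rows, and with quantile normalization 16 and 17, beside 22% and 23.6%. With the GC trend removed they were 12 and 13 of 79, beside 18.6% each way, and with GC and length trends removed 22 and 10 of 79, beside 19% and 19.4%. The 10 higher ones were NDUFA2, NDUFAB1, NDUFB2, NDUFB6, NDUFB11, NDUFS3 and NDUFS5 of complex I, COX7C and COX8A of complex IV, and the combined row of ATP5F1E. Some of these gaps were small. NDUFB6 was at 74.0, 72.7, 74.4 and 76.4 FPKM, while NDUFS3, a core subunit, was at 55.1, 47.4, 68.6 and 73.2 FPKM. The 13 lower ones were NDUFA5, NDUFA6, NDUFA9, NDUFA12, NDUFB3, NDUFB5, NDUFB8 and NDUFS6 of complex I, UQCRC2 and UQCRHL of complex III, COX7A2L of complex IV, and ATP5PB and ATP5PO of complex V. NDUFB8 was at 123, 126, 107 and 106 FPKM, with replicates close together. NDUFA6 was at 119, 50.6, 42.6 and 47.7 FPKM, where the library labelled ZR751shLucif replicate 1 stood apart from the other 3. Complexes I and IV held genes of both directions, and none of the 4 genes of complex II was separated. The shares lay below those of all rows in these settings, except that with GC and length trends removed the 22 of 79 higher lay above the 19%. Whether the complexes differ in these counts was not tested.

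Other genes of the pathway were taken from lists. No gene of the lists that follow passed the adjusted p (limma). The 15 complex I assembly factors had a median log2 fold change of -0.42 (-0.02 without the library labelled ZR751shLucif replicate 1), from ECSIT at 0.26 to NDUFAF6 at -0.81. The 3 tested complex II assembly factors ran from SDHAF1 at 0.44 to SDHAF4 at -0.21, and the 6 complex III assembly factors from UQCC1 at 0.45 to TTC19 at -0.40. The 20 complex IV assembly factors had a median of -0.10. Among them COX17, a copper chaperone, was at 102, 117, 134 and 124 FPKM, with a log2 fold change of 0.24. COX20, a chaperone of the COX2 subunit, was at 30.2, 30.4, 17.9 and 13.2 FPKM, with -0.96 ± 0.28 (limma adjusted p = 0.534). Both COX20 values of ZR751shMLL3 were below those of ZR751shLucif, and the log2 fold change was the same, -0.96, without the library labelled ZR751shLucif replicate 1. The 4 complex V assembly factors ran from ATPAF2 at 0.04 to FMC1 at -0.53. Cytochrome c1 (CYC1), a complex III subunit that the symbol rule does not take in, was at 156, 148, 179 and 175 FPKM, with a log2 fold change of 0.22. Cytochrome c (CYCS) was at 65.2, 81.7, 74.6 and 56.3 FPKM, with -0.17. Of the 17 enzymes of pyruvate dehydrogenase and the citric acid cycle, MDH2 was lowest at -0.63, with a list median of -0.42 that was 0.05 without the library labelled ZR751shLucif replicate 1. The 13 mitochondrially encoded subunits were not analysed here.

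Ribosomal protein genes showed the same library standing apart, as did some other lists. It was the highest of the 4 for 61 of 75 mitochondrial ribosomal protein genes (81.3%) and for 68 of 77 cytosolic ones (88.3%), beside 47.9% of all rows. It was also the highest for 12 of 15 complex I assembly factors (80%) and 13 of 17 pyruvate dehydrogenase and citric acid cycle enzymes (76.5%). For complex IV assembly factors this held for 12 of 20 (60%), and for regulators of nuclear respiratory genes for 4 of 11 (36.4%). The median log2 fold changes of the mitochondrial and cytosolic ribosomal protein genes were -0.30 and -0.48, and 0.00 and -0.07 without that library. MRPS21 was lowest among the mitochondrial ones at -1.07 and MRPL55 highest at 0.31, and among the cytosolic ones RPS26 was lowest at -1.66 and RPS19 highest at 0.36. RPS26 was at 6846, 820.2, 693 and 808 FPKM, and it has many near-identical copies.

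Of the 13 listed regulators of nuclear respiratory genes and mitochondrial DNA transcription, 11 passed the filter and none passed the adjusted p (limma). PPARGC1A, the coactivator known as the inducer of mitochondrial biogenesis, was at 0.106, 0.0657, 0.0208 and 0.0745 FPKM and failed the filter, as did PPARGC1B at 0.541 to 1.03 FPKM. For 6 of the 11, both ZR751shMLL3 libraries were below both ZR751shLucif libraries, beside 25.3% of all rows, and for 2 they were above, beside 17.6%. GABPB1, the partner subunit of GABPA, was at 12.5, 15.2, 10.0 and 9.50 FPKM, and TFAM, which packages mitochondrial DNA, at 10.4, 12.1, 9.11 and 8.82 FPKM. TFB1M, a mitochondrial rRNA methyltransferase, had the lowest log2 fold change, -0.54, and YY1 the highest, 0.36, which was -0.10 without the library labelled ZR751shLucif replicate 1. ESRRA was at 24.6, 21.5, 25.9 and 28.3 FPKM, with both ZR751shMLL3 libraries above. SP1 itself was at 16.7, 23.7, 13.7 and 18.3 FPKM, with overlap. The median of the 11 was -0.30, and -0.40 without that library.

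SP1 is a zinc finger protein that binds GC-rich promoters, and its ChIP-seq peak lists were set against the start sites of the subunit genes. A start site was the 5′ end of the gene in the GENCODE annotation of GRCh37 (hg19), and it was counted when a peak summit lay within 1 kb. In some genes this end is far from the start of the canonical transcript. The summit counted for COX7A2L in ZR751shMLL3 replicate 1 lay at -63766 bp from the canonical start, and that for ATP5F1A in replicate 2 at -5900 bp. The lists differed before any gene was considered. At an FDR of 0.01 they held 204178 and 12065 peaks in ZR751shMLL3 replicates 1 and 2 and 0 in both ZR751shLucif libraries, where the FDR of no listed peak was that low. At this threshold 18 of 88 subunit genes (20.5%, 95% Wilson interval 13.3 to 30.03%) had a peak in ZR751shMLL3 replicate 1, beside 22.8% of all rows tested. In ZR751shMLL3 replicate 2, 42 of 88 (47.7%, interval 37.6 to 58.0%) had one, beside 42.3% of all rows. In both ZR751shLucif libraries 0 of 88 had one (0%, interval 0 to 4.18%), beside 0% of all rows. The intervals cover counting error only. In both ZR751shMLL3 libraries the share of all rows lay within the interval of the subunit genes, and in ZR751shLucif both shares were 0 because the lists held no such peak.

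Ranked lists of equal length gave another order. Among the 10000 peaks of highest signal in each list, 4 and 5 subunit genes had a peak in ZR751shLucif replicates 1 and 2 (4.55 and 5.68%), beside 3.31 and 3.8% of all rows. The same count gave 2 in ZR751shMLL3 replicate 1 (2.27%), beside 4.4% of all rows, and 39 in ZR751shMLL3 replicate 2 (44.3%), beside 40.1%. ZR751shMLL3 replicate 2 therefore differed from its own replicate by more than replicate 1 differed from the ZR751shLucif libraries. With all listed peaks, the shares were 38.6% (interval 29.1 to 49.1%) and 33.0% in ZR751shLucif, beside 24.4 and 27.3% of all rows, and 20.5 and 78.4% in ZR751shMLL3, beside 23 and 74.7%. Protein-coding rows at 0 in all 4 RNA-seq libraries gave 12.7, 15.8, 8.09 and 13.3% on that measure, and 0.516% among the 10000 top peaks of ZR751shMLL3 replicate 2. With 2 libraries per line that differed this much, no difference between the lines in SP1 at these genes was detectable.

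**Figure D4:**
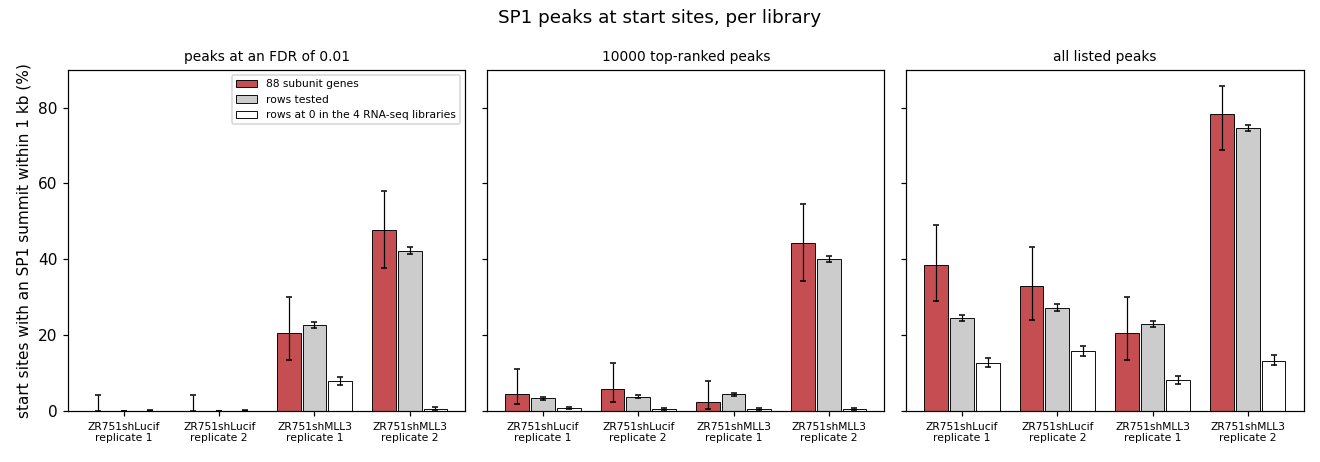
Share of start sites with an SP1 summit within 1 kb (y axis, %) in each library (x axis), for the 88 subunit genes, all rows tested and protein-coding rows at 0 in the RNA-seq, with 95% Wilson intervals. In ZR751shMLL3 replicate 2 the subunit genes reach 47.7% at an FDR of 0.01 and 44.3% among the 10000 top peaks, and the other libraries lie at 20.5% or less in both panels.

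In ZR751shMLL3 replicate 2, the summits lay close to the starts. Among the 38 tested subunit genes with a summit in its 10000 top peaks, 32 (84.2%) had it within 250 bp of the start, with a median distance of 90.0 bp, beside 69.2% and 142 bp over all rows tested with such a summit. At an FDR of 0.01, this library had peaks at 19 genes of complex I, 1 of complex II, 5 of complex III, 6 of complex IV and 10 of complex V, with the combined rows counted under their complex, and at ATP5IF1. Peaks at an FDR of 0.01 in both ZR751shMLL3 libraries were found at 12 subunit genes (13.6%), beside 15.3% of all rows. This threshold kept 97.2% of the listed peaks of replicate 1 and 4.02% of those of replicate 2, and in the top 10000 of both lists 2 subunit genes remained, NDUFS8 and ATP5PD (2.27%, beside 3.77% of all rows). The 12 genes were NDUFS8, ATP5PD, ATP5F1E, NDUFA11, COX6B1, SDHD, COX7C, NDUFA8, ATP5F1B, NDUFA6, UQCRC2 and UQCRB. A gene was counted when each list had a summit within 1 kb, which need not be the same peak. In ZR751shMLL3 replicates 1 and 2, the summits lay at 763 and -9 bp from the 5′ end of SDHD and at -793 and 198 bp for COX7C. They lay at 885 and -29 bp for NDUFA8 and at -410 and 467 bp for UQCRB, and closer together in the other genes. NDUFS8 had the best ranks, 149 and 546 in the ZR751shMLL3 lists, while its best rank in the ZR751shLucif lists was 125130 in replicate 1, with no peak in replicate 2. COX6B1 ranked among the top peaks in 3 libraries, with 161 and 262 in ZR751shLucif and 289 in ZR751shMLL3 replicate 2, and 67412 in ZR751shMLL3 replicate 1. NDUFA11 ranked 3746, 1342, 22475 and 4538, and ATP5F1B ranked 3373, 6788, 150797 and 1611. Listed peaks were present in all 4 libraries at 8 subunit genes, which were these 3, ATP5PD, ATP5F1E, NDUFA8, COX8A and ATP5MF (9.09%, beside 5.17% of all rows).

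The lists of the other marks were read in the same way. At an FDR of 0.01, H3K4me1, a mark of enhancers and promoter flanks, had a summit within 1 kb of 11 and 11 of 88 starts in ZR751shLucif (12.5% each), beside 17 and 21.8% of all rows. In ZR751shMLL3 it had one at 2 and 5 of 88 (2.27 and 5.68%), beside 2.35 and 8.58% of all rows. Both the subunit genes and all rows thus gave lower shares in ZR751shMLL3, whose H3K4me1 lists held 28599 and 109586 peaks at this FDR against 141158 and 192201. ERα had a summit at 13 and 1 of 88 in ZR751shLucif (14.8 and 1.14%), beside 7.06 and 0.963% of all rows, and at 0 and 0 of 88 in ZR751shMLL3, beside 0.138 and 0.999%. The ZR751shLucif libraries thus differed from each other as much as the lines did.

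Promoter windows of 280 bases, from 250 before to 30 after the start of the canonical transcript on GRCh37, are shown for 5 genes. These were among the best ranked of the genes with an SP1 summit within 1 kb in both ZR751shMLL3 lists, not always the same peak. NDUFA11, which also ranked among them, is left out because both of its summits in the ZR751shMLL3 lists lay more than 250 bp from that start, at -807 and -733 bp. Each gene shown has at least 1 summit within 250 bp of the start on either side, which need not lie in the printed bases. Capitals mark matches, on either strand, to the letters GGGCGG (the GC box of SP1), CCGGAAG (ETS proteins such as GABP), AAGGTCA (estrogen-related receptors) and CCAAT (the box of NF-Y), and to the palindromic NRF1 motif and the YY1 motif. The CCAAT box was added to the search after the sequences had been seen, and no match shown overlaps another.

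NDUFS8, at chr11:67797898-67798177 on the plus strand, is shown for its best ranks in both ZR751shMLL3 lists, with summits at -138 and -36 bp, both in the window. That window also overlaps an exon of a long noncoding RNA gene on the other strand. ATP5PD, at chr17:73043035-73043314 on the minus strand, encodes a subunit of the peripheral stalk of complex V, and its window lies inside the gene body of KCTD2. Its summits, at 109 and 79 bp, lie downstream of the printed bases. ATP5F1E, at chr20:57607361-57607640 on the minus strand, encodes the epsilon subunit, with summits at -3 bp in the window and at 55 bp downstream of it. COX6B1, at chr19:36138975-36139254 on the plus strand, is the one whose peak ranked high in both ZR751shLucif lists as well, and its ZR751shMLL3 summits, at -118 and -139 bp, lie in the window. SDHD, at chr11:111957347-111957626 on the plus strand, encodes a membrane anchor of complex II, and its window overlaps the coding sequence of TIMM8B on the other strand. Its summit of ZR751shMLL3 replicate 2 lies in the window, at -58 bp, and that of replicate 1 far downstream, at 714 bp.
NDUFS8: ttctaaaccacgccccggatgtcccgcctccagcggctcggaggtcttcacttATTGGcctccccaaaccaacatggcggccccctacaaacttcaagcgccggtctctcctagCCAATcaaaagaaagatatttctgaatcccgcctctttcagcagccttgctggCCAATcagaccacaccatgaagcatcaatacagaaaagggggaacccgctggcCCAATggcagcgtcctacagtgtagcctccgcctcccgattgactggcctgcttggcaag
ATP5PD: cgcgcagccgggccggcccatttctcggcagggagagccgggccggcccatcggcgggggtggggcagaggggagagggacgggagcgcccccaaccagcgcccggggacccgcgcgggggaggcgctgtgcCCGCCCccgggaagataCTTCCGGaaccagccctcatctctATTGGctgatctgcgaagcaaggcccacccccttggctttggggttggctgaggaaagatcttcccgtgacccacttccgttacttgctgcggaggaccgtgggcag
ATP5F1E: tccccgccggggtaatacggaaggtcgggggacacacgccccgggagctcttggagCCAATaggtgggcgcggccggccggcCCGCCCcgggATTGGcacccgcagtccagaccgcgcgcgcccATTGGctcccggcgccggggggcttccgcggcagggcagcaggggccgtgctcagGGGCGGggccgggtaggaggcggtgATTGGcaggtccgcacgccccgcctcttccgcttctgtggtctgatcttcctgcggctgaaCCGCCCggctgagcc
COX6B1: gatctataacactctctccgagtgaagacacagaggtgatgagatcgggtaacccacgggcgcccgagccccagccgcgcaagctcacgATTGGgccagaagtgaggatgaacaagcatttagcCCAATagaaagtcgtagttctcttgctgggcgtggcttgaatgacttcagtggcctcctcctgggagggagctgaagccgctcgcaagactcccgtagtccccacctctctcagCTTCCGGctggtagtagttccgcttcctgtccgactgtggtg
SDHD: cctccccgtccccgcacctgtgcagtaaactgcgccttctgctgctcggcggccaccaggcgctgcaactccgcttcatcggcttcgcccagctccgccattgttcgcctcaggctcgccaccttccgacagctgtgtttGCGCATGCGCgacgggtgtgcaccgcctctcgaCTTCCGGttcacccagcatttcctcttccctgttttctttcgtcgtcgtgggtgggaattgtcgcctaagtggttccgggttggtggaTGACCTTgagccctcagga

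The 5 windows differed in their motifs. NDUFS8 held 4 CCAAT boxes and no match to the letters of the GC box. ATP5F1E held 3 GC boxes and 4 CCAAT boxes, ATP5PD 1 GC box, 1 ETS motif and 1 CCAAT box, and COX6B1 1 ETS motif and 2 CCAAT boxes. SDHD held 1 NRF1, 1 ETS and 1 estrogen-related receptor motif. A match is a description of the letters, and the absence of one says nothing about binding of the factor.

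Across the 79 tested subunit genes with such a window, 12 (15.2%) held the estrogen-related receptor motif, beside 2.06% of 10850 rows tested. The YY1 motif was in 6 (7.59%), beside 2.53%, the NRF1 motif in 4 (5.06%), beside 2.47%, and the ETS motif in 24 (30.4%), beside 20.5%. The GC box was in 48 (60.8%), beside 75.6%, and the CCAAT box in 24 (30.4%), beside 36.1%. The median GC content of the windows was 60.4% for the subunit genes and 66.8% for all rows, and the part of base composition in these shares was not tested. By complex, the estrogen-related receptor motif was in 3 of 35 windows of complex I, 2 of 4 of complex II, 0 of 9 of complex III, 3 of 12 of complex IV and 4 of 15 of complex V. The GC box was in 25 of 40 subunit genes with an SP1 peak at an FDR of 0.01 in ZR751shMLL3 replicate 2 (62.5%) and in 23 of 39 without one (59.0%). The CCAAT box was in 17 of 40 (42.5%) and 7 of 39 (17.9%). It was added after windows of genes with such peaks had been seen, so this contrast carries no weight of its own. Peaks were placed by the 5′ end of the gene and windows by the canonical start, so the peak and the window are different sites in some genes. These are counts of letters over genes, with no test.

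**Figure D5:**
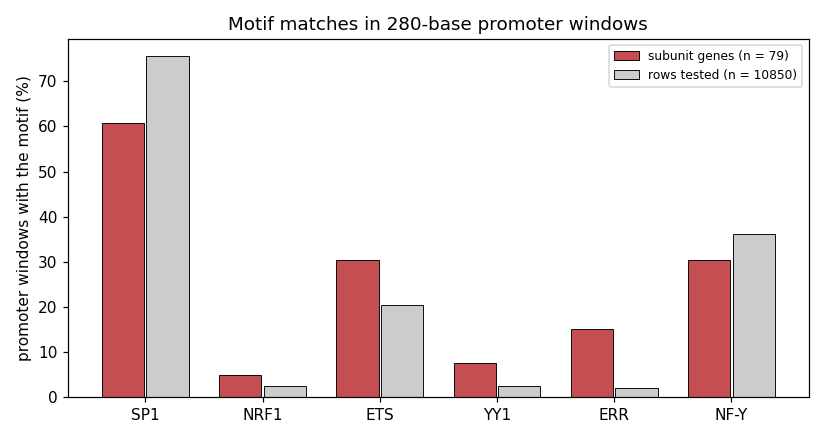
Share of promoter windows (%) that hold each motif, for the 79 tested subunit genes and for 10850 rows tested. The estrogen-related receptor motif stands at 15.2% of the subunit genes beside 2.06% of the rows, and the GC box at 60.8% beside 75.6%.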

How the data were processed

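RNA-seq of 2 ZR751shMLL3 and 2 ZR751shLucif libraries and SP1, H3K4me1 and ERα ChIP-seq of 2 libraries per line and mark were used. The deposited FPKM were made by the authors from hg19 alignments (TopHat2 2.0.13) with Cufflinks and Cuffnorm 2.2.1, and they hold no counts, so depth is unknown. The deposited ChIP-seq lists were made by the authors from BWA 0.7.5a-r405 alignments, with peaks called per library by SPP against input. Each list gives a signal value per peak, on its own scale, and the −log10 of its FDR, both as deposited.

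RefSeq identifiers were joined to symbols for 22894 of 23500 rows, and NDUFA4 and NDUFA4L2 by their GENCODE symbol alone. Values were taken as log2(FPKM + 0.5), rows with a mean above 1 were kept, and the lines were compared with limma 3.58.1 in R 4.3.3, two-sided, with Benjamini-Hochberg adjustment over 11134 rows. Fold changes are on that scale and understate changes of low genes. P-values measure only the spread between the libraries, which the paper describes as biological replicates. Part of that spread may be technical. The scripts were tested on simulated data. The members and lists were chosen with earlier results of these data known. Values are given for the 2 highest genes of each complex, the largest fold change and the 3 smallest p each way, paralogs, filtered genes, and the largest fold change each way in each list. Other named genes were chosen after their values were seen. The result of 1 gene that this rule names is not reported here. Alternatives were other pseudocounts, filters and scalings, GC and length trends, 1 surrogate variable, a replicate block, each library left out, and other peak ranks and windows.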

Additional observations from a re-analysis of the deposited data

How the results depend on the processing

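No subunit gene was called under other pseudocounts, filters, scalings, GC and length trends or with the replicate block, whose median log2 fold change was again -0.18. Calls were 11 with 1 surrogate variable and ranged from 0 to 19 when 1 library was left out, the 19 without ZR751shLucif replicate 2. A fit without 1 library leaves 1 line unreplicated, and its p-values hold no spread of that line. The calls without ZR751shLucif replicate 2 are therefore not evidence of change. The replicate block rests on replicate numbers alone, since same-numbered libraries deviated together with r = 0.0374 over 2 pairs.

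With 1 library left out, the median over all subunit genes ranged from -0.49 to 0.12. It ranged from -0.36 to 0.10 in complex I, from -0.52 to 0.0656 in complex II, from -0.93 to 0.0943 in complex III, from -0.40 to 0.15 in complex IV and from -0.62 to 0.16 in complex V. Each positive end was the value without ZR751shLucif replicate 1. Complex IV had 0.0222 with median centring, 0.14 with quantile normalization and 0.12 with GC and length trends removed, and complex II had 0.11 with the last.

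With 1 library left out, the log2 fold change ranged from -1.39 to 0.138 for MDH2, from -0.00054 to 0.72 for RPS19, from -0.10 to 0.81 for YY1, from -0.41 to 0.49 for ATPAF2, from -0.44 to 0.0331 for SDHAF4 and from -0.37 to 0.0305 for CYCS. With the GC trend removed, ATPAF2 had -0.0509, CYC1 -0.0123, CYCS 0.14 and SDHAF4 0.0681, and with the length trend removed too, CYCS had 0.10 and SDHAF4 0.18. The cause of these reversals was not tested.

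The SP1 share of ZR751shLucif replicates 1 and 2 was 38.6 and 33.0% with all listed peaks, 11.4 and 7.95% in the top 50000 and 4.55 and 5.68% in the top 10000. ZR751shMLL3 replicate 1 had 4.55% in the top 50000, 2.27% in the top 10000, 34.1% within 2 kb and 36.4% with any annotated transcript start. ZR751shMLL3 replicate 2 had 78.4% with all listed peaks and 62.5% in the top 50000. FPKM without counts leave the counting error of each gene unknown.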
